A study of Mus musculus with 9 samples.

Results

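The genes described here are 7 neighbours on distal mouse chromosome 2 that belong to a cluster of zinc finger genes: 2210418O10Rik, Gm14434, Zfp967, Zfp973, Gm14305, Gm14295 and Gm14296. They were taken by gene symbol from the 24532 genes listed for every mouse, and all 7 were found in each of the 9 mice. They were chosen by measured values, since several of them were near absent in the stressed wild-type mice. Their values in that group are therefore given as a description, without a test, and only the comparison that leaves those mice out is tested. All 7 averaged at least 30 reads over the 9 mice and entered the fit across all genes. Several of them reached that mean only through the groups in which they were high.

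RNA was taken from the medial prefrontal cortex of 9 mice, which the labels give as C57BL/6 of 11 weeks and the methods as C57BL/6J males, with 1 library for each mouse. There were 3 groups of 3 mice. The CT mice were wild type and remained unstressed in their home cages. The WT_ST mice were wild type and were immobilized daily over weeks (chronic restraint stress). The KO_ST mice were homozygous for a deletion of Fkbp5, which encodes a co-chaperone of the glucocorticoid receptor, and went through the same restraint. The knockout line had been crossed onto C57BL/6J, and by the methods mice of both genotypes came from matings of heterozygous parents. All mice went without food and water during the hours of restraint. No unstressed knockout mice were among these samples, so the effect of the genotype without stress cannot be told apart here. In bulk tissue, fewer cells of a type and less RNA per cell cannot be told apart either.

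Zinc finger genes of this kind encode proteins in which repeated C2H2 fingers, each held by a zinc ion, read DNA sequence. Many also carry a KRAB box, which recruits the co-repressor Trim28 and, through it, the histone methyltransferase Setdb1 to silence chromatin, mainly at retrotransposons. The family has grown by tandem duplication into clusters whose members differ little in sequence, and distal chromosome 2 of the mouse holds such a cluster.

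The promoters of 3 members are shown because they belong to the 2 members with the highest level and to one with a low level, and that of Gm6710 because this neighbour was not low in the stressed wild-type mice. Each runs from 250 bases before to 50 bases after the start that the RefSeq promoter table uses (GRCm38.p6), which for Gm14295 and Gm14434 is not the outer end of the gene span printed for them. The coordinates are chr2:176798350-176798649 for Gm14295 and chr2:176708103-176708402 for Gm14305, both on the plus strand, chr2:176486700-176486999 for Gm14434 on the minus strand, and chr2:175868995-175869294 for Gm6710 on the plus strand. All are written 5′ to 3′, and capitals mark CCAAT and its reverse complement ATTGG.
Gm14295: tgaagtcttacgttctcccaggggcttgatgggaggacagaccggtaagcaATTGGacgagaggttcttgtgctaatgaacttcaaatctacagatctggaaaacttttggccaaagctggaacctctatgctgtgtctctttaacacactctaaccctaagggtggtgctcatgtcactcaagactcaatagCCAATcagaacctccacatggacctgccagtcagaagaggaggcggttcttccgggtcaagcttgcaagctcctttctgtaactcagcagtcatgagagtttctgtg
Gm14305: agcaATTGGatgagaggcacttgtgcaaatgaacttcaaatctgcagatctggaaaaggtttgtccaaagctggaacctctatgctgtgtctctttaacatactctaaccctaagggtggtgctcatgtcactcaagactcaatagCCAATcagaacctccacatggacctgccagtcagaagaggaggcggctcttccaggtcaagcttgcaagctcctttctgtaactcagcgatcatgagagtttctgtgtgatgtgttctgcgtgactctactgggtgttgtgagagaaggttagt
Gm14434: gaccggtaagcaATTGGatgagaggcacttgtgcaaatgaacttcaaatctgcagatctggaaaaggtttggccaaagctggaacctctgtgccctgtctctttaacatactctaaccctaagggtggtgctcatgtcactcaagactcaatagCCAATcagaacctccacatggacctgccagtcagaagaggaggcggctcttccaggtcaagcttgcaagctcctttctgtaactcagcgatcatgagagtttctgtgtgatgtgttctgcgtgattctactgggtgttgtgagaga
Gm6710: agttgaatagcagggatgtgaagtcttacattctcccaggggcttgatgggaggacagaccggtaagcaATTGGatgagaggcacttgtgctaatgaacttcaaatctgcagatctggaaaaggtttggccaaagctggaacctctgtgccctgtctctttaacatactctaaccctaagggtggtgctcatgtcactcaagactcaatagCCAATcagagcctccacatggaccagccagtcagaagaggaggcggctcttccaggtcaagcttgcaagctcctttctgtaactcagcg
The promoters were near copies of each other. Of the 7 members, 6 had a promoter entry, and their 15 pairs were 94.2 to 100% identical (median 94.9%) over 234 to 297 aligned bases. The Gm6710 promoter was 98.8% identical to that of Gm14434, 97.0% to that of Gm14305 and 94.3% to that of Gm14295. The promoter of Gm14308, a neighbour between the members, matched that of Gm14434 at 300 of 300 bases. CCAAT was present on one strand or the other in 6 of 6 member promoters and in 17 of 17 promoters of other zinc finger genes of the cluster, against 10248 of 27025 (37.9%) over all promoters of the same length. TATAAA and GGGCGG, searched on both strands, were in none of the 6, against 14.2% and 35.9% of all promoters. CCAAT overlaps neither motif. These matches describe the letters of the windows only.

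In the stressed wild-type mice the 7 genes together held 6.65% of their CT level, and in the stressed knockout mice 78.2%. Their reads summed to 34.9, 59.9 and 57.0 CPM (read counts scaled to the same library total in every mouse) in the CT mice, to 3.33, 3.51 and 3.25 in WT_ST and to 52.7, 33.2 and 32.9 in KO_ST. The means were 50.6 ± 13.7, 3.36 ± 0.135 and 39.6 ± 11.3 CPM (SD, n = 3). Every WT_ST mouse lay below every CT and KO_ST mouse, and the CT and KO_ST mice overlapped. These sums weigh the genes by their reads, so levels are also given in FPKM (fragments per kilobase of transcript per mapped reads), which is scaled for transcript length.

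Gm14295 (gene ID 100039123, chr2:176798179-176814092, GRCm38), a predicted zinc finger gene, had the highest level per length in CT mice. Its FPKM values were 6.14, 11.3 and 8.38 in CT, 0.759, 0.844 and 0.116 in WT_ST, and 9.05, 5.59 and 5.71 in KO_ST. They rested on 504, 805 and 550 reads, on 51, 55 and 7 reads, and on 531, 344 and 393 reads. The WT_ST mice lay far below both other groups without overlap, and the lowest of them, replicate 3, had several times fewer reads than the other two. On the quantile-normalized log2(FPKM + 1) scale, which understates the change of low genes, Gm14295 differed by -2.58 (SE 0.251) between WT_ST and CT and by 2.32 (SE 0.235) between KO_ST and WT_ST.

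Gm14305 (gene ID 100043387, chr2:176708353-176721813) was next, a predicted gene with 14 matches of the C2H2 finger pattern in its best forward frame. It had 463, 576 and 602 reads in CT, 76, 72 and 74 in WT_ST and 560, 333 and 383 in KO_ST. In FPKM these were 4.56, 6.53 and 7.43, then 0.926, 0.897 and 0.994, then 7.72, 4.37 and 4.50. The 3 WT_ST mice were nearly alike, at 15.3% of the CT mean in CPM. The log2(FPKM + 1) difference was -1.84 (SE 0.144) for WT_ST against CT.

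Gm14296 (gene ID 102639598, chr2:176892509-176927813) was the member closest to absence in WT_ST. It had 608, 1342 and 1147 reads in CT, 0, 0 and 6 in WT_ST, and 913, 523 and 500 in KO_ST. Per length these were 1.98, 4.99 and 4.65 FPKM in CT and 4.14, 2.25 and 1.94 FPKM in KO_ST. In WT_ST it was listed at 0 FPKM in a pair of mice and at 0.0264 in the other. By CPM the WT_ST mean was 0.231% of the CT mean and the KO_ST mean 71.7%. Of the reads on the 7 members, Gm14296 took 28.5 to 42.2% in the CT mice and 0 to 4.17% in the WT_ST mice, where Gm14305 took 42.4 to 51.4% in place of 18.1 to 21.7%.

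2210418O10Rik (gene ID 100504263, chr2:176226565-176261872), the first member along the chromosome, had 355, 220 and 255 reads in CT, 16, 6 and 17 in WT_ST and 171, 120 and 252 in KO_ST. Per length these were 1.21, 0.956 and 1.18 FPKM, then 0.0767, 0.0288 and 0.0896 FPKM, then 0.901, 0.586 and 1.08 FPKM. The WT_ST mice were again below both other groups, at 5.49% of the CT mean in CPM. The KO_ST mice overlapped CT, at 75.6% of its mean.

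The other members were low in every group, and their differences rest on few reads. Zfp973 (gene ID 545490, chr2:176670522-176681090) had 53, 38 and 39 reads in CT, 0, 11 and 10 in WT_ST and 0, 78 and 42 in KO_ST. In FPKM this was 0.630, 0.519 and 0.574, then 0, 0.155 and 0.150, then 0, 1.24 and 0.586. The KO_ST mice spanned the whole range of the gene, from none to its highest value. Zfp973 averaged 30.1 reads, just above the limit of 30 reads.

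Gm14434 (gene ID 668039, chr2:176470369-176486853) had 91, 114 and 122 reads in CT, 10, 5 and 5 in WT_ST and 120, 85 and 94 in KO_ST. The FPKM values were 0.317, 0.461 and 0.535 in CT, 0.0421, 0.0218 and 0.0211 in WT_ST, and 0.589, 0.396 and 0.392 in KO_ST. KO_ST reached 105% of the CT mean in CPM, and WT_ST 6.84%.

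Zfp967 (gene ID 100303732, chr2:176521004-176533821) differed from the other members in KO_ST. It had 61, 88 and 74 reads in CT, 11, 21 and 25 in WT_ST and 11, 33 and 20 in KO_ST. Its FPKM values were 0.308, 0.488 and 0.514 in CT, 0.0601, 0.115 and 0.148 in WT_ST, and 0.0656, 0.195 and 0.104 in KO_ST. Both stressed groups lay below CT, at 29.3% and 32.7% of its mean in CPM, and overlapped each other.

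**Figure D1:**
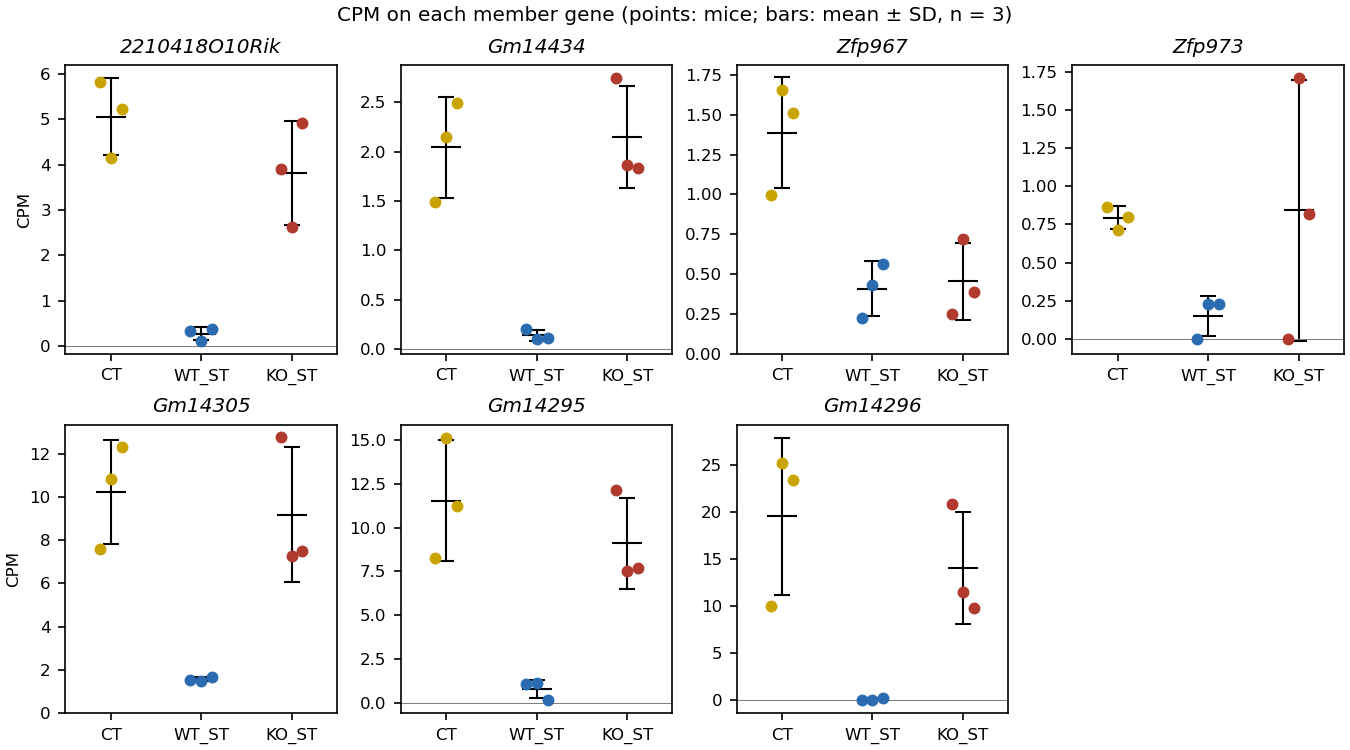
CPM (y axis) on each member gene in CT, WT_ST and KO_ST mice (x axis), with points for mice and bars for the mean ± SD (n = 3). In all 7 panels the WT_ST points lie below the CT points, and Zfp967 is the gene whose KO_ST points also all lie below CT.

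The order of the mean levels per length in CT was Gm14295 at 8.60 ± 2.58 FPKM, Gm14305 at 6.17 ± 1.47, Gm14296 at 3.87 ± 1.65, 2210418O10Rik at 1.11 ± 0.137, Zfp973 at 0.575 ± 0.0555, Gm14434 at 0.438 ± 0.111 and Zfp967 at 0.436 ± 0.112 (SD, n = 3). Neighbouring genes in this order overlapped in their values except Gm14296 and 2210418O10Rik, and 2210418O10Rik and Zfp973. In WT_ST the order was led by Gm14305 at 0.939 ± 0.0499 FPKM, followed by Gm14295 at 0.573 ± 0.398, and Gm14296 was last.

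In each WT_ST contrast the counts of members were set by how they were picked and are given for completeness. For WT_ST against CT, 7 of 7 members were lower without overlap between the groups, where 6.46% of the 14370 tested genes were. For KO_ST against WT_ST, 5 of 7 were higher without overlap, where 4.99% of all tested genes were. The exceptions were Zfp973, which was at 0 in 1 mouse of each stressed group, and Zfp967. Both comparisons use the same WT_ST mice.

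KO_ST against CT was the comparison that did not use the stressed wild-type mice. A gene counted as called where limma gave p under 0.05 before adjustment and the fold change exceeded 1.2. Of the 7 members 1 was called, Zfp967, beside 3.56% of all tested genes. Zfp967 had averaged 30 reads or more only through its CT mice, the group in which it was high, so this call gives no support to a difference of the members. It differed by -0.34 on the log2(FPKM + 1) scale (95% interval -0.53 to -0.15), with 3 of 3 KO_ST mice below every CT mouse, as in 7.88% of all tested genes. Its limma p was 0.00372, and its Benjamini-Hochberg adjusted p over all tested genes was 0.458, so the difference did not pass the correction, which 0.0626% of the tested genes passed in this comparison. On the read counts, edgeR gave a log2 fold change of -1.58 for the same gene, with an adjusted p of 0.493.

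The remaining 6 members were not called between KO_ST and CT with all mice, and their intervals are given on the log2(FPKM + 1) scale, which understates the fold of members near or below 1 FPKM. Gm14295 differed by -0.27 (95% interval -0.81 to 0.28, limma adjusted p = 0.733) and Gm14296 by -0.32 (-1.05 to 0.41, adjusted p = 0.769). Gm14305 differed by -0.13 (-0.65 to 0.39, limma adjusted p = 0.877) and 2210418O10Rik by -0.17 (-0.41 to 0.083, adjusted p = 0.649). Gm14434 differed by 0.043 (-0.17 to 0.26, limma adjusted p = 0.900) and Zfp973 by -0.030 (-0.64 to 0.58, adjusted p = 0.985), and the sign of both turned in some alternatives (Zfp973 was at 0.11 in edgeR, and Gm14434 at -0.033 without KO_ST replicate 1). On other scales the low members differed by more, 2210418O10Rik by -0.38 in DESeq2 and Zfp973 by -0.54 with a pseudocount of 0.1 (DESeq2 and limma adjusted p = 0.699 and 0.859). None of these intervals shows that the groups were equal. Single mice moved the values: Gm14296 lay between -0.63 and -0.13 with each mouse left out, and without CT replicate 1 it was -0.63 and met the call rule (limma adjusted p = 0.434). Without CT replicate 2 it was -0.13. Gm14295 lay between -0.46 (without KO_ST replicate 1) and -0.067 (without CT replicate 2). Gm14305 lay between -0.35 (without KO_ST replicate 1) and -0.0067 (without CT replicate 3). 2210418O10Rik lay between -0.24 (without KO_ST replicate 3) and -0.059 (without KO_ST replicate 2).

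Only 2 other listed genes start between the first and the last member, and both averaged too few reads to be tested. Gm14308, whose promoter is that of Gm14434 letter for letter, had 26, 36 and 43 reads in CT, 7, 4 and 4 in WT_ST and 58, 39 and 43 in KO_ST. Gm14405, annotated as an unprocessed pseudogene, had 7, 13 and 10 reads in CT, 0 in each WT_ST mouse, and 2, 5 and 0 in KO_ST. In both genes the WT_ST mice were below all CT mice, where 6.46% of all tested genes were lower without overlap. Of 100-base windows of the searched transcripts (described below), 100% of those of Gm14308 and 5.87% of those of Gm14405 occur in a member. Within its searched transcript Gm14308 is therefore not a separate measurement.

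Low values in WT_ST were also found on one side of the members, mostly in genes that share sequence with the members or with each other. Of 100-base transcript windows (described below), 99.6% of those of Gm4724, 54.9% of Zfp966 and 38.2% of Gm14391 occur in a member, and Gm14440 and Gm14288 share 98.3 to 100% with each other. These genes are therefore not separate measurements. For 0610010B08Rik the share was not measured. Of the 20 listed genes within about 2 Mb before the members, 14 were tested, and for WT_ST against CT 6 were called lower and 1 higher, where 1.32% of all tested genes were called lower and 1.16% higher. The median log2 difference of the 14 genes was -0.080, against 0.0034 over all tested genes. In limma none of the 14 passed the correction for all genes, which 0.0348% of all tested genes passed, and in DESeq2 on the counts 2 passed, as did 72 of all 14370 genes. Of the 14 listed genes within about 2 Mb after the members, 11 were tested. In limma 0 were called in any of the 3 comparisons, and 0 passed the correction. Of all tested genes 2.47% were called in WT_ST against CT, 3.56% in KO_ST against CT and 2% in KO_ST against WT_ST. For 11 genes, 0 calls are near those shares.

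Zfp966, a zinc finger gene of this proximal stretch, had 89, 60 and 108 reads in CT, 0, 10 and 0 in WT_ST and 20, 61 and 48 in KO_ST. Its log2(FPKM + 1) difference between WT_ST and CT was -0.53 (SE 0.0810, limma adjusted p = 0.256). Gm14440 had 198, 224 and 199 reads in CT, 55, 85 and 67 in WT_ST and 159, 162 and 140 in KO_ST, with a difference of -0.54 between WT_ST and CT (SE 0.0826, limma adjusted p = 0.256). In both genes the 3 WT_ST mice lay below the other 6 mice. Zfp966 and Gm14288, like Zfp967, averaged 30 reads only through the groups in which they were high, so their calls support no difference. Of the searched windows of Gm4724, 99.6% occur in a member. Without Zfp966, Gm14288 and Gm4724, 11 genes remained. Of these, 3 were called lower and 1 higher in WT_ST against CT, and 3 higher in KO_ST against WT_ST. The median of these 11 genes was 0.012 in WT_ST against CT. Gm14288 differed by -0.70 (SE 0.107, limma adjusted p = 0.256), 0610010B08Rik by -0.35 (SE 0.0718, adjusted p = 0.542) and Gm4724 by -0.46 (SE 0.159, adjusted p = 0.634).

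The remaining called genes of that stretch, Gm14391 and Gm6710, went different ways. Gm14391 had 245, 235 and 254 reads in CT, 87, 102 and 291 in WT_ST and 240, 211 and 370 in KO_ST. It was called lower, at -0.78 (SE 0.308, limma adjusted p = 0.635), although the groups overlapped, since WT_ST replicate 3, at 2.88 FPKM, lay within the CT values of 2.44 to 3.83 FPKM. Gm6710 had 667, 392 and 450 reads in CT, 621, 618 and 540 in WT_ST and 493, 547 and 594 in KO_ST. It was called higher, by 0.38 between WT_ST and CT (SE 0.102, limma adjusted p = 0.630).

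For KO_ST against WT_ST, 5 of the 14 tested genes before the members were called higher, where 0.946% of all tested genes were. These were Gm14391 at 0.81, Gm14288 at 0.52, Gm14440 at 0.45, Zfp966 at 0.32 and 0610010B08Rik at 0.31 on the log2(FPKM + 1) scale. As said above, the calls of Zfp966 and Gm14288 support no difference, since both entered the test only through the groups in which they were high. In limma none passed the correction, which 0.153% of all tested genes passed, and in DESeq2 1 did, as did 76 of all genes. For KO_ST against CT, 1 of the 14 was called, beside 3.56% of all tested genes. This gene was Gm6710, which was higher by 0.30 (limma adjusted p = 0.499). The comparisons share groups and are not independent of each other.

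**Figure D2:**
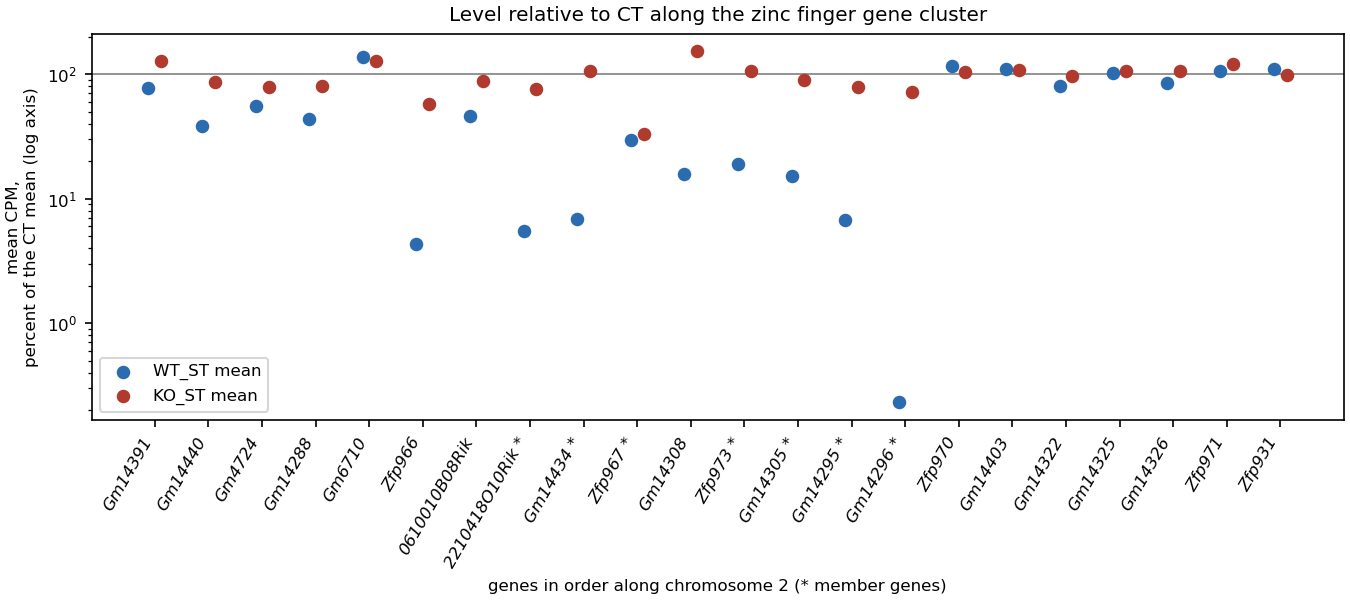
Mean CPM in WT_ST and KO_ST mice as a percent of the CT mean (log axis), for the zinc finger genes in order along chromosome 2, with members starred. Genes averaging under 25 reads, among them Gm14393 and Gm14405 with 0 reads in all WT_ST mice, are not plotted. Among the genes plotted, WT_ST values fall to 0.231% at Gm14296 and return to 116% at Zfp970, the first zinc finger gene after the members, while KO_ST values of the members range from 32.7% at Zfp967 to 106% at Zfp973.

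Reads were also summed over the zinc finger genes on either side, in stretches drawn after the values were seen. The stretch before the members ran from Gm14393 to 0610010B08Rik and left out Zfp831, a zinc finger gene farther up the chromosome with more reads than the whole stretch (46.2 CPM in CT, 44.0 in WT_ST and 41.8 in KO_ST). The 9 genes of the stretch held 31.7 ± 1.90 CPM in CT, 24.0 ± 3.14 in WT_ST and 32.6 ± 1.39 in KO_ST (SD, n = 3). The 9 after them held 90.8 ± 3.92 CPM in CT, 90.7 ± 6.80 in WT_ST and 96.1 ± 8.06 in KO_ST. WT_ST was thus at 75.6% of the CT mean before the members, or at 87.3% with Zfp831 added, and at 99.9% after them. The 3 groups overlapped after the members, and WT_ST lay below both other groups before them, where it overlapped them once Zfp831 was added.

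**Figure D3:**
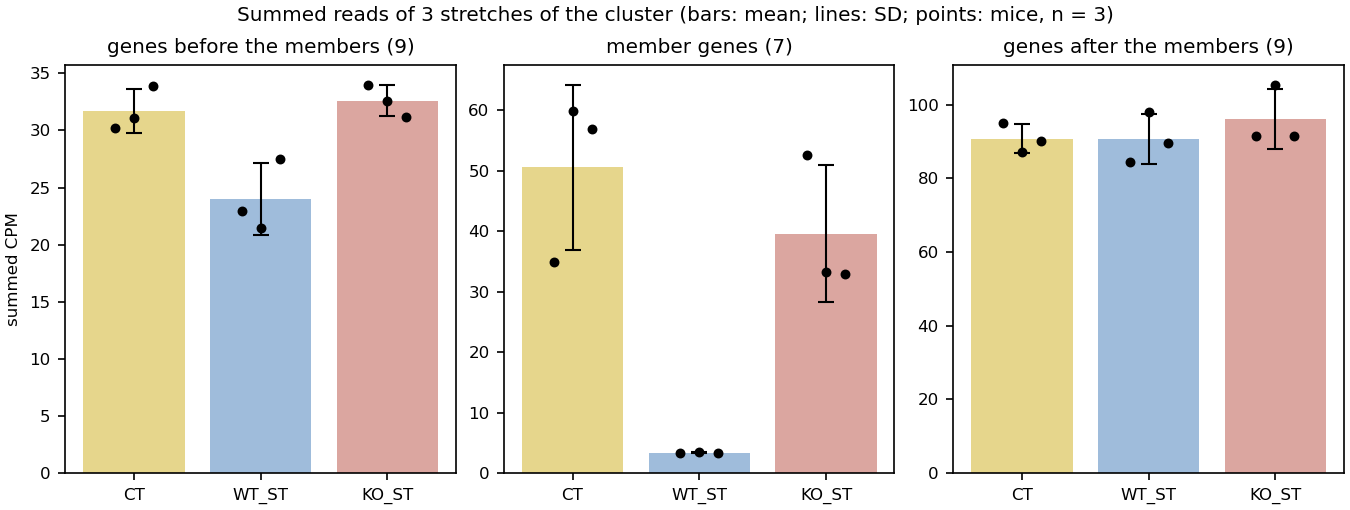
Summed CPM (y axis) of the members and of the 9 zinc finger genes before and after them in CT, WT_ST and KO_ST mice (bars for means, lines for SD, points for mice, n = 3). WT_ST is at 6.65% of the CT mean in the members, 75.6% before them (Zfp831 left out) and 99.9% after them.

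How far reads can be assigned to single members is limited by their sequences. Each transcript was cut into all windows of 100 bases, and each window was looked for in the transcripts of all other genes (GENCODE M21, GRCm38). For 2210418O10Rik, Gm14434 and Zfp967, 100% of the windows were found unchanged in some other gene, most often in Gm14296, Gm11007 and Zfp966. The share was 74.9% for Zfp973, 69.7% for Gm14295, 66.8% for Gm14305 and 26.5% for Gm14296. The share of Gm14296 is that of the transcript that matches the deposited accession. Another Gm14296 transcript holds every window of 2210418O10Rik, so reads within its searched transcript cannot be told apart from reads of Gm14296. Some searched transcripts were shorter than the length implied by reads and FPKM. They held 1659 bases for Gm4724 (4638 to 4679 implied), 1497 for Gm14434 (4651 to 5341) and 1458 for Zfp967 (2945 to 3828). For Gm14305 and Gm14296 the lengths were close. Sharing in unsearched sequence was not measured.

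Sharing among the members themselves was uneven. It was 100% of windows for 2210418O10Rik, 65.4% for Gm14305, 63.5% for Gm14434, 24.5% for Gm14295, 16.1% for Zfp973, 14.2% for Zfp967 and 4.90% for Gm14296. Gm6710 and Gm14391, the pair that moved in different directions, shared 100% of their windows with each other. How reads that match several genes were counted is not given in the sources used here, so the values of single members are uncertain. Sense transcripts only were searched, and whether counting used strand is not given either.

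**Figure D4:**
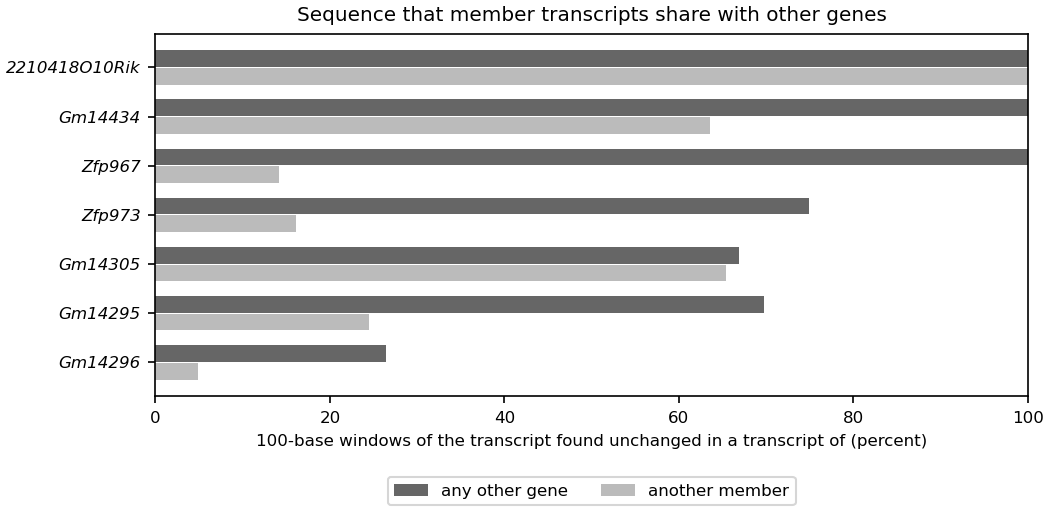
Percent of 100-base windows of each member transcript found unchanged in a transcript of another member or of any other gene. All windows of 2210418O10Rik, Gm14434 and Zfp967 occur elsewhere, and 26.5% of those of the matched Gm14296 transcript.

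Genes that share sequence with the members were summed after the values were seen. In all, 18 listed genes outside the members shared at least 1 window with a member. Together they held 119.7 ± 3.76 CPM in CT, 113.0 ± 6.28 in WT_ST and 126.6 ± 8.34 in KO_ST (SD, n = 3). The mean of their sum was thus lowest in WT_ST. The WT_ST mice (105.8 to 117.3 CPM) overlapped CT (115.5 to 122.6) and lay below KO_ST (120.8 to 136.2). Another 22 sharing genes of the annotation are not listed in the files, and reads on them were not analysed here. In KO_ST replicate 2 Zfp965 had 78 reads and Zfp973 also had 78. Zfp965 had none in the other mice, and all its windows occur in Zfp973.

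The deposited annotation places several members more than once in the genome. The accession of Gm14434 was entered 6 times, that of Zfp967 4 times and those of 2210418O10Rik, Gm14296 and Zfp973 2 times each, and Gm14295 and Gm14305 had a single entry. Over all listed genes, 364 of 24532 (1.48%) had more than 1 entry. Outside the cluster and its flanks, 40 tested genes had several entries, of which 4 (10%) were called in WT_ST against CT, beside 2.47% of all tested genes, and 3 (7.50%) in KO_ST against CT, beside 3.56%. In KO_ST against WT_ST 3 of the 40 were called higher and 2 lower (12.5% in all), beside 0.946% and 1.05% of all tested genes. The part of repeated entries in the members' values was not tested. Gm14295 and Gm14305, with a single entry each, were chosen by measured values like the other members. They share 69.7% and 66.8% of their windows with other genes.

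Translated transcripts of the members held between 6 and 25 matches of the finger spacing C, 2 residues, C, 12 residues, H, 3 to 5 residues, H. Matches were counted in the transcript and forward frame with the most of them, without regard to stop codons. Gm14295 had 25 matches, Gm14305 14, Gm14434 13, Zfp967 11, Zfp973 9, and 2210418O10Rik and Gm14296 6 each. The transcripts of Gm14295 and Gm14296 that match the deposited accessions held 0.

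Few zinc finger genes elsewhere were called. Of 335 genes elsewhere in the genome with a Zfp number as symbol, 314 were tested, and 3 (0.955%) were called in WT_ST against CT, beside 2.47% of all tested genes. In KO_ST against CT 2 (0.637%) were called, beside 3.56% of all tested genes. In KO_ST against WT_ST 1 (0.318%) was called, which was higher, beside 0.946% of all tested genes called higher and 1.05% called lower. On chromosome 2 within 10 Mb outside the flanks, 98 genes were tested. In the same comparisons 4 (4.08%), 4 (4.08%) and 1 (1.02%, lower) were called, beside 2.47%, 3.56% and 2% of all tested genes. The co-repressor list held 21 genes through which KRAB zinc finger proteins act, or which maintain the same chromatin. Of the 21, 0 were called in limma in any of the 3 comparisons, beside the same shares of all tested genes. For 21 genes, 0 calls are near those shares.

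Trim28, the co-repressor that binds the KRAB box, had FPKM values of 43.9, 72.2 and 43.7 in CT, 44.6, 42.3 and 42.8 in WT_ST and 41.4, 43.3 and 42.3 in KO_ST. Apart from CT replicate 2 the 9 mice were close together. Setdb1, the methyltransferase, was at 11.7, 12.8 and 12.8 FPKM in CT, 11.4, 12.4 and 11.9 in WT_ST and 11.2, 11.1 and 11.3 in KO_ST. Neither was called.

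Among genes outside the cluster and its flanks, those whose standardized profile over the 9 mice was nearest to the mean profile of the members were Slc13a5, a citrate transporter, at a mean absolute difference of 0.278 SD, then Zfp423 at 0.288, Slc7a6os at 0.293, 2700094K13Rik at 0.311 and Lama5 at 0.319. Those nearest to the mirror image were Tmpo, a protein of the nuclear lamina, at 0.236 SD, Rtfdc1 at 0.250, B230217C12Rik at 0.261, Kctd8 at 0.271 and Uba6 at 0.272. The members themselves were between 0.177 SD for Gm14295 and 0.620 SD for Zfp967. With 14370 genes and 9 mice, distances of this size are a description of these libraries.

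Depth ranged from 43778471 to 61150128 reads per mouse, and the ranges of the 3 groups overlapped. Fkbp5, the targeted gene, was at 7.61, 6.46 and 7.28 FPKM in CT, 9.83, 9.47 and 10.3 in WT_ST and 3.59, 4.69 and 4.45 in KO_ST, with a difference of -1.04 between KO_ST and WT_ST (SE 0.0866, limma adjusted p = 0.00908). Between KO_ST and CT it differed by -0.60 (SE 0.0989, limma adjusted p = 0.217), so reads on Fkbp5 remained in the knockout mice, at a mean of 4.24 ± 0.574 FPKM against 7.11 ± 0.594 in CT (SD, n = 3). Markers of excitatory neurons summed to 1391 to 1509 FPKM in all mice. Striatal markers, which check the dissection, summed to 29.4 to 41.6 FPKM in CT, 38.5 to 49.3 in WT_ST and 33.5 to 41.1 in KO_ST, so that WT_ST overlapped both groups but held the highest mice. Microglial markers summed to 71.5 to 86.2 FPKM in CT, 53.3 to 62.9 in WT_ST and 27.1 to 62.3 in KO_ST, and endothelial markers to 30.7 to 36.0, 24.5 to 29.7 and 22.5 to 28.3. Both lists were thus lower in both stressed groups than in CT, a pattern that Zfp967 also had. Astrocyte markers summed to 217 to 252 FPKM in CT, 199 to 207 in WT_ST and 192 to 234 in KO_ST, with WT_ST below CT and KO_ST overlapping CT. Most of that sum is Slc1a3. Slc1a3 and Aqp4 were below CT in WT_ST without overlap, and the other 3 markers overlapped, Aldh1l1 and Gfap with a higher mean in WT_ST. Markers of inhibitory neurons summed to 120 to 139 FPKM in CT, 141 to 152 in WT_ST and 146 to 149 in KO_ST. General neuronal markers summed to 1491 to 1895, 1912 to 2088 and 1935 to 2087, and most of that sum is Snap25. Both sums were higher in both stressed groups without overlap. Of the single genes, Snap25 and Slc32a1 also did not overlap CT. Syt1, Gad1 and Gad2 overlapped CT in WT_ST but not in KO_ST, and Rbfox3 overlapped it in both. The part of these lists in the values of the members was not tested.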

How the data were processed

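Libraries from 9 mice (CT, WT_ST and KO_ST, 3 each) were made with a stranded mRNA kit. Per the methods and processing notes, the authors aligned reads to GRCm38 (mm10) with HISAT2 2.1.0 and Bowtie2 2.3.4.1 and quantified them with StringTie 1.3.4d. The authors deposited, for each gene, a read count without normalization and an FPKM value scaled for transcript length and mapped reads. The treatment of reads that match several genes is not given in the sources used here. The labels give the age as 11 weeks. The methods give a younger age and do not say whether it was taken before or after the weeks of restraint.

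Genes with a mean of at least 30 reads (14370) were tested on quantile-normalized log2(FPKM + 1) with limma 3.58.1 (mean-variance trend) in R 4.3.3, using the mice of the 2 groups compared. The alternatives were edgeR 4.0.16 and, also on counts, DESeq2 1.42.0, another pseudocount, no quantile normalization, a stricter FPKM filter, a replicate block and each mouse left out. P-values measure the spread between these mice. On simulated WT_ST and CT counts for 14370 genes with 200 changed 2-fold, limma recovered 82.0%, edgeR 81.5% and DESeq2 84.0%. Of the genes each called, 4.65% (limma), 5.78% (edgeR) and 21.1% (DESeq2) had not been changed.

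The 7 members and the gene lists were chosen with earlier results of these data known. Named genes are the members, Fkbp5, called or most read neighbours, Trim28, Setdb1 and the 5 genes most like or unlike the members. Genes before the members, the stretches, and the lists by position and by annotation entries were named after their values were seen. Sequences came from RefSeq promoters (GRCm38.p6) and GENCODE M21 transcripts, read with Biopython 1.88 in Python 3.11.15. Figures used matplotlib 3.10.9.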

Additional observations from a re-analysis of the deposited data

How the results depend on the processing

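All member differences between WT_ST and CT kept their direction in every alternative run. The members were chosen for low values in WT_ST, so this direction was set by the choice and lends no support. Over all 3 comparisons, 8 member values under an alternative turned sign. For KO_ST against CT the others kept their sign and no adjusted p fell under 0.05, but sizes differed between scales: Zfp967 was at -0.34 in limma, -1.24 with a pseudocount of 0.1, -1.58 in edgeR with TMM and -1.59 in DESeq2. In the comparisons with WT_ST, 55 values moved by more than the spread between mice. For KO_ST against CT, Zfp973 turned to 0.11 in edgeR with TMM, 0.11 with RLE, 0.11 in DESeq2 and 0.27 without KO_ST replicate 1 (-0.31 to 0.27 with each mouse left out). Gm14434 turned to -0.019 without CT replicate 1 and -0.033 without KO_ST replicate 1 (-0.033 to 0.084). For KO_ST against WT_ST, Zfp967 turned to -0.010 without WT_ST replicate 1 and -0.028 without KO_ST replicate 2 (-0.028 to 0.052). The adjusted p of Zfp967 between KO_ST and CT ranged from 0.0711 in DESeq2 to 0.789. With a mean FPKM of at least 1, Gm14295, Gm14305 and Gm14296 stayed in the test.

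For WT_ST against CT, 355 genes were called (46.8% of them higher), 544 with a pseudocount of 0.1, 535 in edgeR with TMM (33.1% higher) and 535 with RLE (33.1%), 552 in DESeq2 (34.2%), and 277 to 542 with each mouse left out, the highest without CT replicate 3 (59.4% higher). Without quantile normalization 34.1% of 369 calls were higher. For KO_ST against CT, 512 were called (43.2% higher), 519 without quantile normalization (28.5% higher), and 410 to 734 with each mouse left out. For KO_ST against WT_ST, 287 were called, 445 with a pseudocount of 0.1, and 245 to 477 with each mouse left out, the highest without KO_ST replicate 3. The flank counts were examined under the same alternatives after the data were seen. Before the members, the 7 called in WT_ST against CT fell to 4 at a mean FPKM of at least 1, where fewer genes are tested, and the 5 in KO_ST against WT_ST to 2, and 3 to 5 with each mouse left out. The 1 in KO_ST against CT became 0 without quantile normalization, and 0 to 2 with each mouse left out. After the members, the 0 in WT_ST against CT became 1 in DESeq2, the 0 in KO_ST against WT_ST became 1 in edgeR with TMM, 1 with RLE and 1 in DESeq2, with 0 to 2 when each mouse was left out, and the 0 in KO_ST against CT 0 to 1. The causes were not tested.

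With the replicate number as a block, 399, 562 and 279 genes were called for WT_ST against CT, KO_ST against CT and KO_ST against WT_ST. Over the 9 pairs of mice with the same number in different groups, the correlation of their deviations averaged -0.0101 (-0.259 to 0.234), against 0.00494 over other pairs, and 2 of the 9 pairs were above 0.1, so the samples share only a number.

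Depth limits the low members most: Zfp973 averaged 30.1 reads, and a count of 0 in a mouse allows up to 3 reads.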
